A study of Mus musculus with 10 samples.

Results

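Interferon response genes were followed in gastrocnemius, the large calf muscle, of mdx and normal (control) mice. The set is a list of 42 mouse genes that hold the interferon receptors, the Irf and Stat factors that act behind them and the genes these factors switch on. The genes were chosen by name, with earlier results of these data known. A gene was included where a probe set of the array named that gene and no other. Of the 42, 36 had such a probe set, 45 probe sets in all, among 8251 genes and 12488 probe sets on the array. Bst2, Ifi203, Irf2, Oas1a, Oasl2 and Stat2 had none and were skipped.

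The samples were total RNA of 5 arrays from mdx mice and 5 from control mice, all male and 16 weeks old. The mdx mouse carries a point mutation in Dmd, the dystrophin gene, that ends the reading frame early, in every cell of the body. Neither the background strain of the groups nor whether each array came from a separate animal was given in the labels, so p-values measure the spread between arrays, which may be technical. As far as the title of the study states its purpose, the comparison asks which mRNAs differ in mdx muscle that has regenerated.

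Interferons are secreted proteins that cells release on infection or damage. Type I interferons (alpha and beta) signal through the receptor pair Ifnar1 and Ifnar2, and interferon gamma, made mainly by T and NK cells, through Ifngr1 and Ifngr2. Both receptors act through Jak kinases on Stat proteins. Type I signals bring a complex that holds Stat2 and Irf9 to interferon-stimulated response elements, and gamma signals act through gamma-activated sites. The induced genes include antiviral effectors of RNA sensing and translation, membrane proteins that hinder virus entry, and GTPases that attack the vacuoles of intracellular pathogens. Some of them, such as Irf5 and Irf8, are also expressed in myeloid cells even without an interferon signal.

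Intensities are linear values, some of them below 0. The 2% trimmed means were 800.7 to 800.9 on 9 arrays and 723.1 on mdx replicate 1. The noise level was 372, the root mean square of all values below 0. A gene with all 5 arrays of a group at or below this level has only an upper bound there, and a difference is then given as at least the other group's geometric mean (values at or below the noise level set to it) over 372. A robust estimate of the noise level, chosen after seeing the data, was lower, at 157. All 10 arrays were at or below 372 for 11 of the 36 interferon response genes, and at or below 157 for 4. Below, the noise level means 372, so being dim depends on that choice. Changes are mdx minus control on the scale log2(intensity + 372), which understates the change of dim genes, with the standard error (SE) and adjusted p of limma. A gene was tested, by its brightest probe set, when more than 134 was reached on at least 5 of the 10 arrays. Arrays of a group resembled each other more (correlations of 0.952 to 0.977 within mdx and 0.961 to 0.977 within control) than arrays of different groups (0.885 to 0.910). The share of values below 0 was 19.7 to 22.5% on mdx arrays and 22.8 to 23.8% on control arrays. Actin's 3' over 5' probe set ratio, a sign of RNA quality, was 0.952 to 1.08 in mdx and 1.07 to 1.16 in control. That of Gapdh overlapped between the groups, at 0.69 to 0.792 in mdx and 0.672 to 0.823 in control. The part of the shifts in values below 0 and in the actin ratio in the results was not tested. Dmd gave 170.0, 211, 237, 159 and 166 in mdx and 863, 669.6, 805, 1003 and 643 in control. All mdx arrays were at or below the noise level, and Dmd was at least 2.11-fold lower in mdx (adjusted p = 6.55e-06), although a point mutation leaves the probes' target in place. All 12 markers of muscle fibres were above the noise level in both groups.

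Interferon response genes that could be tested were often higher in mdx muscle and none was called lower, with Ifi204, Ifitm3, Ly6e and Irgm2 among those called. Of 26 tested genes, 13 were called higher at an adjusted p below 0.05, 0 lower and 13 did not pass. Over all 5764 tested genes of the array, 16.1% were called higher and 18.6% lower. Because the list was chosen with earlier results of these data known, counts set beside such shares describe the list and are no test of it. In 11 of the 26 all mdx arrays lay above all control arrays, which held for 12.7% of all tested genes. The median log2 change was 0.28, beside -0.04 over all tested genes, and 22 of the 26 changes were positive. None of the 26 passed the filter through mdx arrays alone. The remaining 10 genes were too dim to be tested, so the count says nothing about them. After scaling to the hybridization controls instead, chosen after seeing the data, 21 of the 26 were called higher, where 45% of all tested genes were, the median of all tested genes was 0.34 and 96.07% of all called probe sets were higher, against 47.06% as deposited. In a piece of muscle, more cells of a type and more RNA per cell cannot be told apart.

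**Figure D1:**
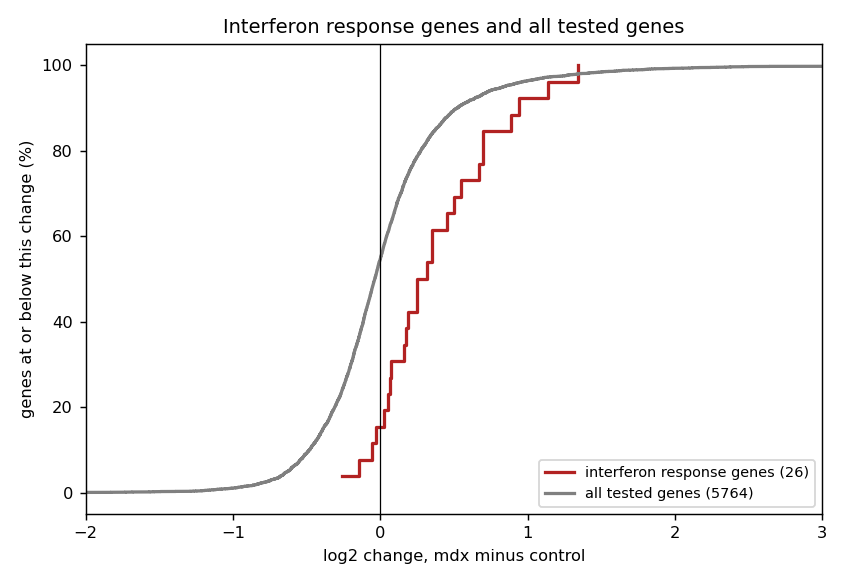
Cumulative distribution of log2 changes, mdx minus control, for the 26 tested interferon response genes and all 5764 tested genes, each gene by its brightest probe set. The x axis is cut at -2 and 3. The curve of the interferon response genes lies to the right, with a median of 0.28 beside -0.04.

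The role groups differed in how many members were called. The Ifitm and Ly6e membrane proteins had 2 of 4 called higher, the GTPases 4 of 6, the Irf factors 3 of 6, the type I effectors 2 of 6, the Ifi200 genes 1 of 1 and the receptors 1 of 3. The median log2 change was 0.56 for the membrane proteins, 0.35 for the GTPases, 0.28 for the Irf factors, 0.21 for the type I effectors and -0.15 for the receptors. With 1 to 6 tested genes in a group these are descriptions, and no difference between groups of genes was tested.

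**Figure D2:**
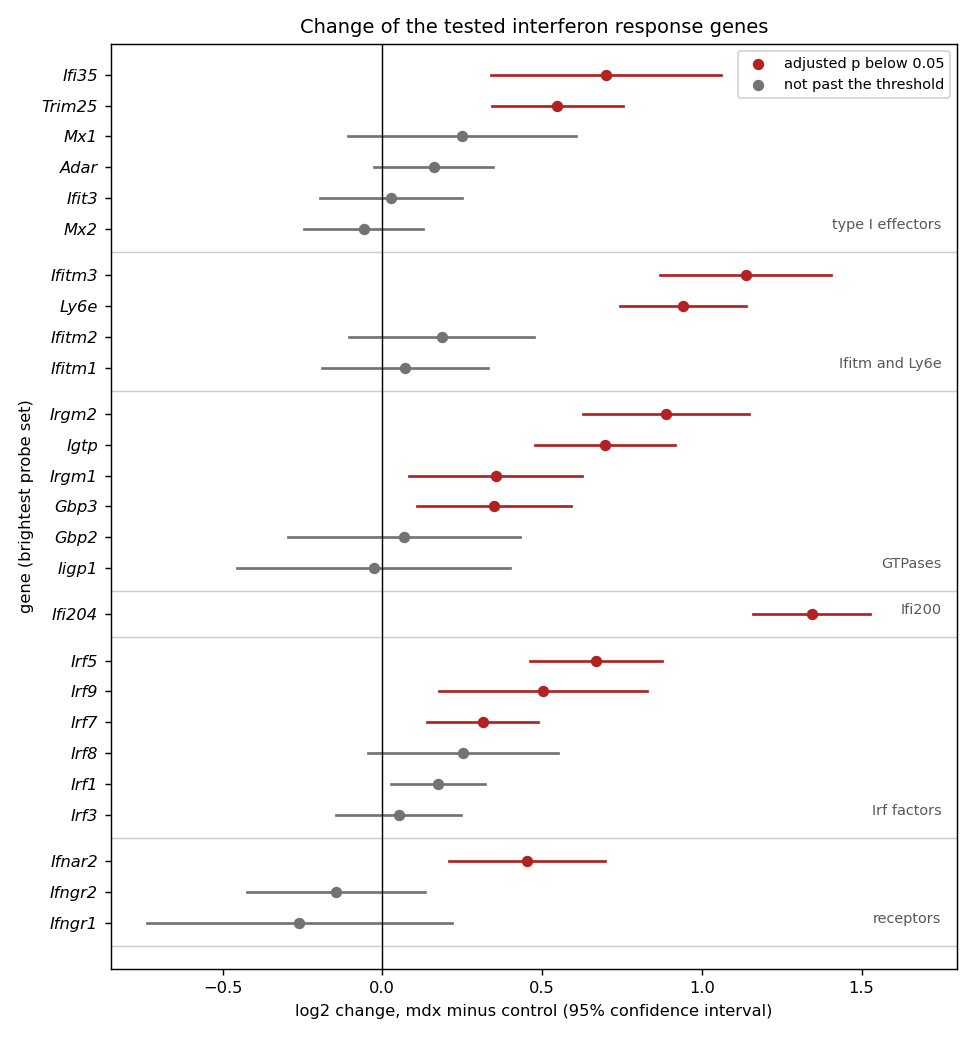
Log2 change, mdx minus control, of the 26 tested interferon response genes by role, with 95% confidence intervals of the fit. Red points passed the adjusted threshold of 0.05, all 13 of them above 0, and the grey points did not. By its brightest probe set Ifi204 stands farthest right at 1.34 and Ifngr1 farthest left at -0.26.

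The interferons themselves were not called. Of 6 interferon genes in the list of other pathway genes, 5 had a probe set, 3 of these were at or below the noise level on all 10 arrays, and of the 2 tested 0 passed, by limma. Ifng, the gene of interferon gamma, averaged -12.3 ± 62.9 in mdx and 45.9 ± 31.7 in control (SD, n = 5 each) and was too dim to be tested. Ifnb1, the gene of interferon beta, averaged 285 ± 156 in mdx and 208 ± 81.2 in control (SD, n = 5 each), with an adjusted p of 0.472. Ifna5, one of the many similar interferon alpha genes, gave 256, 425, 538, 338 and 480.0 in mdx and 148, 927, 527, 350.3 and 288 in control, above the noise level on 3 mdx and 2 control arrays, with overlapping groups (adjusted p = 0.967). Its probe set is marked by the array's maker as one for a family of related sequences.

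Among the receptors, the type I chain Ifnar2 was higher in mdx and the gamma chains did not pass. Ifnar2, the chain that binds type I interferon most tightly, gave 443, 234, 322, 495 and 273 in mdx and 104, 167, 162, 199.5 and 138 in control. The groups did not overlap, but all control arrays and 3 of the 5 mdx arrays were at or below the noise level, so the rise was at least 1.10-fold (adjusted p = 0.00762). Another Ifnar2 probe set, at or below the noise level on all 10 arrays, was called higher too (adjusted p = 0.00384). Ifnar1, its partner chain, was below the noise level everywhere, at 151, -134, 256, 329 and 248 in mdx and -238, -467, 4.59, -27.1 and -81.1 in control, and was not tested. Ifngr1, the chain that binds interferon gamma, averaged 414 ± 219 in mdx and 564 ± 217 in control (SD, n = 5 each), with overlapping groups (log2 change -0.26, SE 0.22, adjusted p = 0.401; 95% interval -0.74 to 0.22). Its signalling partner Ifngr2 averaged 341 ± 118 in mdx and 413 ± 97.1 in control (SD, n = 5 each) and did not pass (log2 change -0.15, SE 0.13, adjusted p = 0.422; 95% interval -0.42 to 0.13). Both gamma chains changed sign when scaled to the hybridization controls.

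Of the transcription factors, Irf5, Irf7 and Irf9 were higher in mdx. Irf5, which acts behind Toll-like receptors and is abundant in macrophages, gave 681, 829.6, 786, 676 and 730.3 in mdx and 287, 310.1, 381, 428 and 243 in control. Every mdx array was above every control array, although 3 of 5 control arrays were at or below the noise level (log2 change 0.67, SE 0.10, adjusted p = 0.000162). Irf7, the factor that amplifies type I interferon production, gave 811, 752, 875, 903 and 811 in mdx and 648, 558, 654, 534 and 582 in control, again without overlap (log2 change 0.31, SE 0.08, adjusted p = 0.00847). A dimmer Irf7 probe set, all of whose arrays were at or below the noise level, did not pass (adjusted p = 0.0824). Irf9, a DNA-binding part of the complex that acts behind the type I receptor, gave 531, 384, 388, 392 and 190.0 in mdx and 236, 173, 206, 7.88 and 163 in control. The lowest mdx array lay among the control arrays, and the rise was at least 1.10-fold (adjusted p = 0.0202). Without mdx replicate 1, the highest of its group, the call of Irf9 was lost (adjusted p = 0.0519).

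Irf1, Irf8 and Irf3 did not pass. Irf1, which responds to interferon gamma, gave 1414, 1501, 1578, 1391 and 1508 in mdx and 1209, 1244, 1284, 1273 and 1329 in control. All mdx arrays were above all control arrays, but the step was small (log2 change 0.17, SE 0.07, adjusted p = 0.0658; 95% interval 0.03 to 0.32) and passed only in some settings. Irf1 was called higher with equal trimmed means (adjusted p = 0.0322), with no filter on dim probe sets (adjusted p = 0.00614) and when scaled to the hybridization controls (adjusted p = 0.000612). Irf8, a factor that macrophages and dendritic cells need to develop, averaged 1315 ± 265 in mdx and 1043 ± 208 in control (SD, n = 5 each) with overlapping groups (log2 change 0.25, SE 0.14, adjusted p = 0.181; 95% interval -0.04 to 0.55). Irf3, which is present in most cells and is activated by phosphorylation, was near the noise level in both groups, at 298 to 488 in mdx and 308 to 364 in control (adjusted p = 0.707).

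The antiviral effectors of the type I response were dim. Of 13 with a probe set, 9 were at or below the noise level on all mdx arrays and 11 on all control arrays, and 6 were bright enough to be tested. Trim25, the ubiquitin ligase that activates the RNA sensor RIG-I, gave 603, 649, 784, 627 and 812 in mdx and 349.9, 349, 339, 454 and 295 in control. The groups did not overlap, with 4 of 5 control arrays at or below the noise level (log2 change 0.55, SE 0.09, adjusted p = 0.00069). Ifi35, an interferon-induced leucine zipper protein, gave 520.2, 511, 475, 278 and 635 in mdx and -15.6, 217, 94.6, 322 and 173 in control. Mdx replicate 4 lay among the control arrays and the other mdx arrays above all of them, a rise of at least 1.33-fold (adjusted p = 0.00572).

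The other 4 tested effectors did not pass. Mx2, a dynamin-like antiviral GTPase of the cytoplasm in mouse, lay above the noise level on all arrays, at 486 to 615 in mdx and 491 to 651 in control (log2 change -0.06, SE 0.09, adjusted p = 0.648; 95% interval -0.24 to 0.13), a change that turned to 0.30 (adjusted p = 0.0475) when scaled to the hybridization controls. Its relative Mx1, which acts in the nucleus in mouse, gave 169 to 350.0 in mdx and -52.2 to 312 in control, with overlapping groups (adjusted p = 0.271). Ifit3, a partner of the RNA-binding Ifit1, gave 179 to 359 in mdx and 185 to 303 in control (adjusted p = 0.864). Adar, which edits adenosine in double-stranded RNA, gave 173 to 274 in mdx and 121 to 215 in control (adjusted p = 0.174). For Mx1, Ifit3 and Adar every array was at or below the noise level, so no fold is given.

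The remaining 7 effectors could not be tested, among them the classical markers of a type I response. Isg15, the ubiquitin-like modifier, gave 15.7, 102, 409.7, 284 and -54.4 in mdx and -164, -143, 33.1, 25.2 and -217 in control, so that 1 mdx array rose above the noise level and 2 mdx arrays lay among the controls. Ifit1, which blocks translation of foreign RNA, gave 26.1, 102, 90.8, 156 and 49.3 in mdx and 7.53, -13.6, -150.4, -78.2 and -155 in control. Oas1g, a member of the family that makes the activator of RNase L, gave 110.5, 84.2, 144, 61.0 and 101 in mdx and 12.4, 1.92, 34.3, 12.1 and -17.1 in control. In Ifit1 and Oas1g all mdx arrays were above all control arrays, though all lay below the noise level. Among the 2487 genes not tested, 5.51% had all mdx arrays above all control arrays, beside 2 of the 10 untested interferon response genes.

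The other dim effectors overlapped between the groups. Usp18, which removes Isg15 from proteins, gave -48.0 to 213 in mdx and -44.9 to 61.0 in control. Ifit2, a relative of Ifit1, gave -174 to 289 in mdx and -88.6 to 80.6 in control. Trim30a, which restrains Toll-like receptor signalling in mouse, gave 43.9 to 228 in mdx and 2.82 to 114 in control. Eif2ak2, the RNA-dependent kinase PKR that stops translation, gave 7.54 to 84.9 in mdx and -76.2 to 111 in control. With no filter on dim probe sets, 15 of 36 interferon response genes were called higher, where 11.4% of all genes were. Irf1 was one of them, and Irf9 (adjusted p = 0.0554) and Irgm1 (adjusted p = 0.0849) were not. The 3 that had not been tested before were Ifit1 (adjusted p = 0.0164), Oas1g (adjusted p = 0.00178) and Ifnar1 (adjusted p = 0.0265). All arrays of these 3 genes were at or below the noise level, so no fold is given. Most control values of Ifit1 and Ifnar1 were below 0 and were set to 0, which removes part of their spread.

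**Figure D3:**
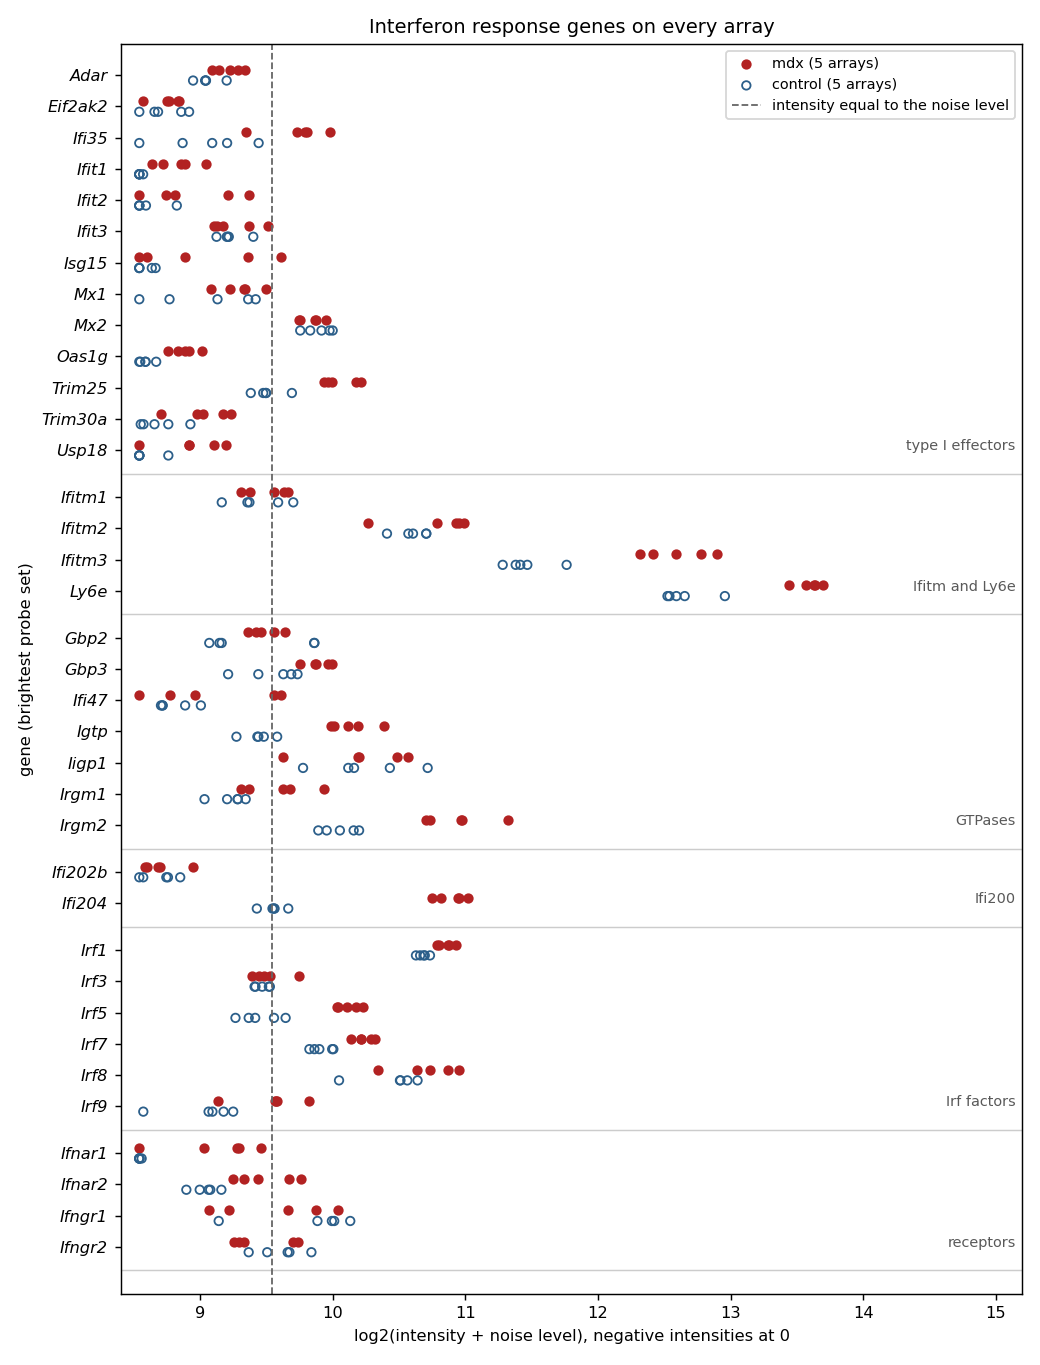
Every array's value for the 36 interferon response genes with a probe set, as log2(intensity + noise level) with negative intensities at 0, mdx (filled) above control (open) in each row, ordered by role. The dashed line marks an intensity equal to the noise level of 372. Of the 36 genes, 11 lie at or left of the line on all 10 arrays.

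Sequences near the start sites of 3 dim effectors are shown because they hold matches to the element named after the type I response. Windows from 250 bases before to 50 bases after the start were taken from RefSeq (build GRCm38.p6), with 45 windows for 36 of the 42 genes. Ifi204, Iigp1, Ly6e, Mx1, Mx2 and Usp18 had no window in the table. The response element was searched as GAAA, any 2 bases and GAAA again, or the same on the opposite strand, and the gamma-activated site as TTC, any 3 bases and GAA, which reads alike on both strands. The response element was in 19 of 45 windows (42.2%), against 3.44% of all 32851 windows of the same length. The gamma-activated site was in 15 of 45 (33.3%), against 8.3% of all windows. In the windows of Ifitm3 and Bst2 a match of one motif overlaps one of the other. Among the other dim effectors, Eif2ak2, Ifit3 and Trim30a also hold the response element, while Ifit2 and Adar hold none in any window. A match describes letters and is not a shown binding site. In the 60 bases below, each read 5' to 3' on the strand of its gene, matches are in capitals. Isg15 (chr4:156200857-156200916, minus strand) holds 3 overlapping response elements, Ifit1 (chr19:34640765-34640824, plus strand) 2 on the opposite strand, and Oas1g (chr5:120887592-120887651, minus strand) 2 that overlap.
Isg15: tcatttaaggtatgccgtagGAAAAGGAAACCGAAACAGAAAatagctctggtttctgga
Ifit1: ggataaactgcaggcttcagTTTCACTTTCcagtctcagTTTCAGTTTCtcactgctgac
Oas1g: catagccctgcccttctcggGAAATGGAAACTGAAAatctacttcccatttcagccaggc

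By call, the response element was in 5 of 13 windows of genes called higher, in 3 of 14 of genes tested and not called, and in 6 of 11 of genes too dim to be tested. Irf5, Irf7, Irf9, Trim25, Ifi35 and Ifnar2 were called higher and had no match to the response element in their windows.

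Among the membrane proteins, Ifitm3 and Ly6e were higher in mdx. Ifitm3, which traps viruses in endosomes, gave 4716, 7258, 5081, 5785 and 6649 in mdx and 2458, 2291, 3103, 2116 and 2356 in control. The groups were well apart (log2 change 1.14, SE 0.12, adjusted p = 1.69e-05). Ly6e, a lipid-anchored surface protein of the Ly6 family that hinders coronavirus entry, gave 10742, 12376, 11790.0, 12890.0 and 12268 in mdx and 6069.5, 5796, 7574, 5576 and 5516 in control, also without overlap (log2 change 0.94, SE 0.09, adjusted p = 6.55e-06). The maker of the array marks the probe set of Ly6e as one that can bind a family of related sequences. Another Ly6e probe set, with 9 of 10 arrays at or below the noise level, did not pass (adjusted p = 0.765), and the mean over both gave a log2 change of 0.52 (adjusted p = 0.00958).

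Ifitm1 and Ifitm2, which neighbour Ifitm3 on chromosome 7 and belong to its family, did not pass. Ifitm2 gave 1658, 856, 1581, 1607 and 1396 in mdx and 987, 1297, 1185, 1148 and 1296 in control, with mdx replicate 2 below every control array (log2 change 0.19, SE 0.13, adjusted p = 0.319; 95% interval -0.10 to 0.48). Without that array Ifitm2 was called higher, at a log2 change of 0.32 (adjusted p = 0.0207). Ifitm1 gave 439.8, 380.1, 419.6, 262 and 292 in mdx and 460.4, 397, 289.8, 201 and 283 in control, with all mdx arrays inside the range of the controls (log2 change 0.07, SE 0.12, adjusted p = 0.692; 95% interval -0.19 to 0.33). The 95% interval of Ifitm3 (0.87 to 1.40) lay above those of Ifitm1 and Ifitm2, although the difference between the genes was not tested.

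Among the GTPases, Irgm2 and Igtp were higher in mdx. Irgm2, an immunity-related GTPase that regulates the others on membranes, gave 2179.6, 1629, 1331, 1292 and 1635 in mdx and 690.1, 769, 619, 577 and 802 in control, without overlap (log2 change 0.89, SE 0.12, adjusted p = 0.000107). Igtp, also called Irgm3, gave 969, 797, 659, 642 and 735 in mdx and 321, 341, 318, 246 and 393 in control, without overlap and with 4 of 5 control arrays at or below the noise level (log2 change 0.70, SE 0.10, adjusted p = 0.000182). In both genes mdx replicate 1 was the highest array. Igtp and Irgm2 lie next to each other on chromosome 11, with 0 other protein-coding genes between them.

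Irgm1 and Gbp3 were called with less margin. Irgm1, which guards against intracellular bacteria and controls autophagy, gave 288, 261, 447, 418 and 608 in mdx and 251, 277, 151, 217 and 249.9 in control. The lowest mdx array lay among the controls, and the rise was at least 1.17-fold (adjusted p = 0.0443). Leaving out mdx replicate 3, 4 or 5 or any 1 control array ended this call, with an adjusted p up to 0.0991. Gbp3, a guanylate-binding protein, gave 566, 490.5, 625, 562 and 645 in mdx and 418, 321, 479, 452 and 220.0 in control, just without overlap (log2 change 0.35, SE 0.11, adjusted p = 0.028). It lost its call without mdx replicate 3 or 5 or control replicate 2 or 5 (adjusted p up to 0.0646).

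The other GTPases did not pass or could not be tested. Iigp1, which coats and breaks parasite vacuoles, gave 1056, 800.1, 1147, 797 and 418 in mdx and 504, 1007, 1309, 738 and 772 in control with its brighter probe set (log2 change -0.03, SE 0.20, adjusted p = 0.935; 95% interval -0.45 to 0.40). A dimmer Iigp1 probe set gave 491, 359, 530.0, 321 and 395 in mdx and 169.9, 103, 256, 232 and 155 in control, without overlap, and was called higher by at least 1.15-fold (adjusted p = 0.00292), so the probe sets disagree. The maker marks the dimmer of them as one for a family of related sequences. Gbp2, a guanylate-binding protein induced by interferon gamma, averaged 347 ± 55.1 in mdx and 335 ± 204 in control (SD, n = 5 each), and its control arrays fell into 2 high and 3 low ones (log2 change 0.07, SE 0.17, adjusted p = 0.796; 95% interval -0.30 to 0.43). Ifi47, another immunity-related GTPase, gave 407, 65.0, 382, 126 and -33.4 in mdx and 48.2, 48.1, 44.7, 141 and 101 in control and was too dim to be tested.

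The start sites of the 4 called GTPases are shown because all 4 hold the response element. It is not particular to them: Gbp2, which did not pass, holds it 59 bases before the start. Another window of Gbp3 and the window of Ifi47 hold no match. Of all GTPase windows 5 of 7 held the response element, against 3.44% of all windows. Igtp (chr11:58199491-58199550, plus strand) and Irgm2 (chr11:58214882-58214941, plus strand) each hold a gamma-activated site followed by a response element, and 58 of their 60 bases are identical. The response element begins 34 bases before the start in Igtp and 64 bases before it in Irgm2. Irgm1 (chr11:48871411-48871470, minus strand) and Gbp3 (chr3:142559979-142560038, plus strand) each hold 2 overlapping response elements and no gamma-activated site. Ifitm3 (chr7:141010703-141010762, minus strand), shown for comparison, holds 2 response elements and a gamma-activated site that overlaps the second of them, all after the start.
Igtp: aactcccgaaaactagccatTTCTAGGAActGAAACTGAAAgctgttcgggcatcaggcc
Irgm2: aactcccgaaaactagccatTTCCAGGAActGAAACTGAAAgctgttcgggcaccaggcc
Irgm1: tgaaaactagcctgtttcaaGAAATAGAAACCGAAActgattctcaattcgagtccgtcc
Gbp3: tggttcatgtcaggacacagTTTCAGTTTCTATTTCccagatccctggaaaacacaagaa
Ifitm3: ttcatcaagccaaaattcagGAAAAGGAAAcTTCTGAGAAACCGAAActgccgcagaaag

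Ifi204 was higher in mdx by its brightest probe set. Ifi204, a DNA-binding Ifi200 protein that takes part in sensing of DNA and is made by myeloid cells, gave 1607, 1593, 1703, 1429.5 and 1343 in mdx and 383, 439, 375, 316 and 381 in control. The groups were far apart (log2 change 1.34, SE 0.08, adjusted p = 1.75e-07). The probe set is marked by its maker as one for a family of related sequences, so RNA of its near relatives could add to it. Other Ifi204 probe sets were dimmer: one averaged 125 ± 161 in mdx and 150.3 ± 159 in control (SD, n = 5 each) and did not pass (adjusted p = 0.897), and one averaged 165 ± 43.5 in mdx and 84.9 ± 41.5 in control (SD, n = 5 each) and was not tested. With the mean over its tested probe sets the log2 change of Ifi204 was 0.69 (adjusted p = 0.000556). Ifi202b, a relative that lacks the pyrin domain of the family, was below the noise level on all arrays, at 12.1 to 122 in mdx and -4.86 to 88.8 in control.

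**Figure D4:**
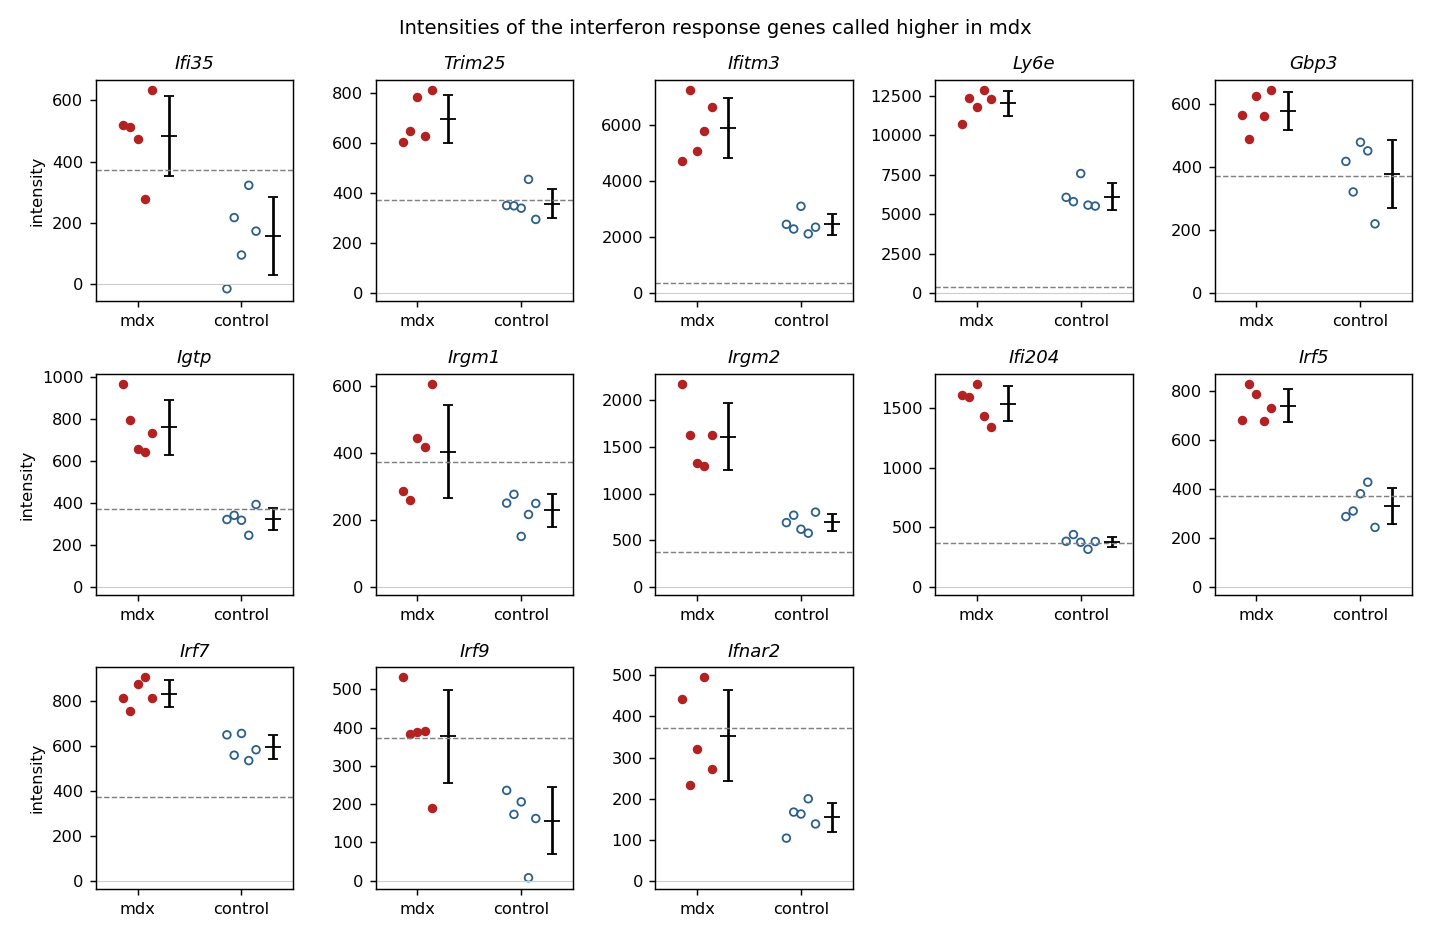
Intensities of the 13 interferon response genes called higher in mdx, with 5 mdx arrays left of 5 control arrays, mean ± SD beside each group and the noise level of 372 as a dashed line. Each panel has its own linear scale. The groups overlap for Ifi35, Irgm1 and Irf9 and not for the other 10.

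The probe sets of one gene did not always give the same call. Of 9 further probe sets of 8 genes, 2 were called higher, 3 were tested and not called and 4 were too dim to be tested. The Ifnar2 pair were both called. The other called one was the dimmer Iigp1 probe set described above.

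Other genes of the interferon pathway came from a second list. Of 84 names, 52 had a probe set and 32 were tested, of which 14 were called higher, 1 lower and 17 did not pass, beside 16.1% higher and 18.6% lower over all tested genes. Casp4, Myd88 and Psmb9 passed the filter through mdx arrays alone and so had to differ. Without these 3, 11 of 29 were called higher, with a median log2 change of 0.23. By p, the 8 first of those called higher were Cd74, Psmb9, Psmb8, H2-D1, H2-K1, Samhd1, B2m and Casp4. The p and rank of Psmb9 and Casp4 are no support, since the filter fixed that they differ. Of the 8, 6 serve antigen presentation, Psmb9 among them, but the list was chosen to hold many such genes, so this count describes the list. Of its other tested genes of this kind, Psmb10 and Tap1 were called higher too. Psme1 (adjusted p = 0.452) and Tapbp (adjusted p = 0.293) did not pass. Cd74, the chaperone of class II molecules in antigen-presenting cells, averaged 14453 ± 2326 in mdx and 1756 ± 302 in control (SD, n = 5 each; log2 change 2.80, SE 0.12, adjusted p = 9.37e-09). Psmb9, an immunoproteasome subunit, averaged 381 ± 47.2 in mdx and -97.5 ± 151 in control (SD, n = 5 each) and is given as values alone. Psmb8, another such subunit, averaged 1653 ± 229 in mdx and 460.0 ± 71.3 in control (SD, n = 5 each; log2 change 1.28, SE 0.10, adjusted p = 1.09e-06). H2-K1, a class I heavy chain, averaged 16197 ± 1753 in mdx and 8081 ± 656 in control (SD, n = 5 each; log2 change 0.97, SE 0.09, adjusted p = 3.93e-06), and H2-D1, another class I heavy chain, averaged 12753 ± 1318 in mdx and 5622 ± 767 in control (SD, n = 5 each; log2 change 1.13, SE 0.10, adjusted p = 3.04e-06). Class I heavy chains are alike in sequence, and these probe sets could bind more than one of them. B2m, the light chain of class I molecules, averaged 12394 ± 849 in mdx and 7765 ± 226 in control (SD, n = 5 each; log2 change 0.65, SE 0.07, adjusted p = 1.05e-05). Samhd1, which depletes the nucleotides that viruses need, was at least 1.42-fold higher, at 529.6 ± 55.8 in mdx against 125 ± 23.1 in control (adjusted p = 5.91e-06). Casp4, an inflammatory caspase that senses bacterial lipopolysaccharide, averaged 253 ± 34.9 in mdx and 3.04 ± 41.0 in control (SD, n = 5 each), all arrays at or below the noise level, and is given as values alone too. The kinase Jak2, which acts behind the gamma receptor, was the 1 gene called lower, at 374 ± 67.2 in mdx against 607 ± 68.4 in control (log2 change -0.39, SE 0.09, adjusted p = 0.00553). Of its 5 mdx arrays, 3 were at or below the noise level. Another Jak2 probe set was below 0 on every array and was not tested.

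Markers of macrophages were often higher in mdx muscle too. Of 27 monocyte and macrophage markers, 26 had a probe set and 24 were tested, of which 21 were called higher and 0 lower. Over all tested genes 16.1% were called higher and 18.6% lower. The 3 markers that did not pass were Cx3cr1 (log2 change -0.16, adjusted p = 0.554), Fcgr3 (0.24, adjusted p = 0.378) and Fcer1g (0.35, adjusted p = 0.234). Ccr2, Cd53, Lgals3 and Ptprc passed the filter through mdx arrays alone and so had to differ. Without these 4, 17 of 20 were called higher, with a median log2 change of 1.55. The summed intensity of the 26, with negative values at 0, was 80672 to 107813 on mdx arrays and 8581 to 12972 on control arrays, without overlap. Of the 26, 3 did not exceed the noise level on any mdx array and 12 on any control array. Lgals3, Ctss, C1qb and Tyrobp had the smallest p. That of Lgals3 is no support, since the filter fixed that it differs. Lgals3, a galectin of activated macrophages, averaged 9635 ± 1515 in mdx and 4.47 ± 158 in control (SD, n = 5 each) and is given as values alone. Tyrobp, an adaptor of myeloid receptors, was at least 14.5-fold higher (adjusted p = 2.77e-09). C1qb, a complement subunit, averaged 8248 ± 1110.1 in mdx and 541 ± 115 in control (SD, n = 5 each; log2 change 3.24, SE 0.11, adjusted p = 1.76e-09). Another C1qb probe set, above the noise level on all arrays, averaged 2971 ± 247 in mdx and 2794 ± 370 in control (SD, n = 5 each). It did not pass (log2 change 0.08, adjusted p = 0.535), so the probe sets of C1qb disagree. Ctss, a lysosomal protease of myeloid cells, averaged 13443 ± 1532 in mdx and 749 ± 185 in control (SD, n = 5 each; log2 change 3.63, SE 0.12, adjusted p = 1.33e-09). Over the 36 interferon response genes the sum was 34035 to 36678 in mdx and 18775 to 22934 in control. Of this sum the 4 Ifitm and Ly6e genes gave 17554 to 20869 in mdx and 9040.3 to 12152 in control. What part the macrophage markers have in the changes of the interferon response genes was not tested.

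For the other cell types, counts of called markers are read beside the 16.1% higher and 18.6% lower over all tested genes. For T and NK, B and plasma, plasmacytoid dendritic and endothelial cells only 2 to 10 markers each were tested, too few to compare shares. Of 14 T and NK cell markers with a probe set, 10 did not exceed the noise level on any mdx array and 9 on any control array, Cd3d, Cd3e, Cd3g and Cd8a among them. Of the 7 tested, 1 was called higher (Thy1) and 1 lower (Cd4), and the sums were 2893 to 3718 in mdx and 1655 to 4241 in control. For B and plasma cells 1 of 7 was called higher (Jchain) and 2 lower (Ighm and Ms4a1). The sums, 5208 to 6328 in mdx and 7439 to 12305 in control, did not overlap. Another Ighm probe set was called lower too (log2 change -2.04, adjusted p = 1.11e-06). A dimmer Ighm probe set was called higher (adjusted p = 0.0437), and a further tested Ighm probe set did not pass (adjusted p = 0.102). Of the plasmacytoid dendritic cell markers 2 of 6 had a probe set, and 0 were called higher and 1 lower (Spib), with sums of 1366 to 1848 in mdx and 1676 to 1951 in control. Of 10 endothelial markers 1 was called higher (Cd34) and 2 lower (Flt1 and Vwf), with sums of 7402 to 8911 in mdx and 8539.9 to 10464 in control. Fibroblast markers had 5 of 8 called higher, led by Lum, Mfap5, Col3a1 and Col1a1, and 2 lower (Dcn and Pdgfra), with sums of 70369 to 83118 in mdx and 42522 to 53119.5 in control. Muscle fibre markers had 0 of 12 higher and 9 lower, led by Ryr1, Tnni2, Myh1 and Pvalb, with sums of 212486 to 314828 in mdx and 277658 to 455443 in control. What part these cell types have in the changes above was not tested.

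**Figure D5:**
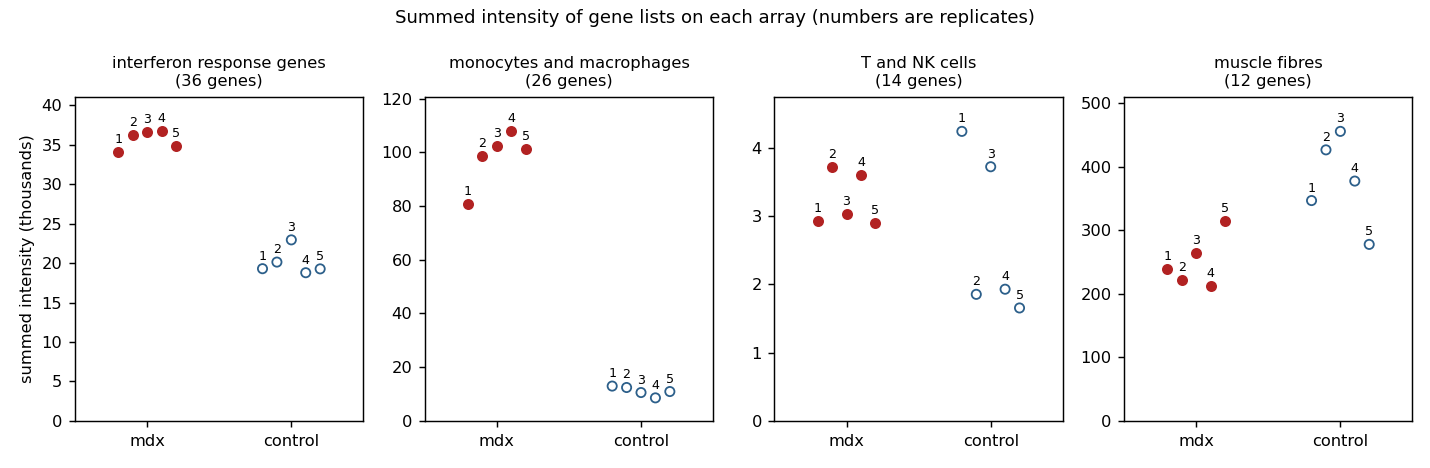
Summed intensity, with negative values at 0, of 4 gene lists on each array, mdx left and control right, with replicate numbers above the points. The interferon response genes and the macrophage markers are higher on every mdx array than on any control array, while the T and NK cell sums overlap.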

How the data were processed

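The data are the deposited intensities of the authors, linear values per probe set with negative values kept. The software, background correction and scaling behind them are not given in the sources used here. Values below 0 were raised to 0, and log2(intensity + 372) was then tested with limma 3.58.1 in R 4.3.3 (two-sided, empirical Bayes with a trend, Benjamini-Hochberg over 7612 probe sets, threshold 0.05), without further scaling, since no array's trimmed mean deviated by more than 10%. The filter was an intensity above 134, the 40th percentile of all values. The code was tested on simulated data. Of 12488 probe sets, 10833 named 1 gene, 396 several and 1193 none, and 66 were controls. No symbol needed an update. All 36 genes with a probe set are named, with the 8 smallest p in each direction for the other pathway genes and up to 4 called genes for each marker list. The genes and lists were chosen with earlier results of these data known. Replicate numbers did not pair the arrays (correlations of same-numbered deviations -0.16 to 0.0443). The number of arrays limits the precision. Alternatives were other pseudocounts, filters, scalings, probe set rules, array weights, a replicate block and leaving out each array. Scaling to the hybridization controls and a robust noise level were chosen after seeing the data.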

Additional observations from a re-analysis of the deposited data

Results flagged for a closer look

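For 2 genes, 1 array stood apart from the rest of its group, out of 52 groups of 5 arrays examined, where chance marks about 1 in 20. Irf8 gave 685 on control replicate 4 and 1082 to 1222 on the other control arrays. Ly6e gave 7574 on control replicate 3 and 5516 to 6069.5 on the other control arrays. The gap was 0.739 of the group's range for Irf8 and 0.731 for Ly6e. Irf8 did not pass in the comparison, and Ly6e was called higher in mdx with and without that array.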

How the results depend on the processing

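Of the 13 genes called higher, 10 were called under each alternative that tested them. With the filter at the noise level 17 interferon response genes were tested and 9 called higher, Ifi35 and Ifnar2 of the 10 not being tested there. Gbp3, Irgm1 and Irf9 lost the call in 6 of 22, 11 of 21 and 2 of 21. The number called higher was 21 after scaling to the hybridization controls, which raised the median of all genes to 0.34 and made 96.07% of 3485 calls higher, against 47.06% of 2554 as deposited. The median of the interferon response genes was then 0.67, and as deposited 0.28. It was 0.39 with 0.5 times the noise level as pseudocount, 0.22 with 2 times it and 0.42 with a robust noise level, as a pseudocount sets the size of changes of dim genes. Of the other pathway genes, 9 were called higher with the filter at the noise level, which tests fewer genes, and 26 higher and 0 lower with the hybridization controls. Leaving out each array gave 11 to 14 interferon response genes higher and 0 lower, a median of 0.27 to 0.33, 2269 to 2483 probe sets called, 13 to 15 other pathway genes higher and 1 lower, and 20 to 21 macrophage markers higher. Replicate numbers did not pair the arrays. With a replicate block 2238 probe sets and 11 interferon response genes higher were called, without Gbp3 (adjusted p = 0.0581) and Irgm1 (adjusted p = 0.0804). Of the genes not called, 7 changed sign, and the cause was not tested. Leaving out each array, the log2 change of Gbp2 was -0.0202 to 0.178, that of Ifit3 -0.0358 to 0.0708, that of Irf3 -0.00617 to 0.0836 and that of Iigp1 -0.143 to 0.120, below 0 without control replicate 1 or 4 for Gbp2, without mdx replicate 3 for Ifit3 and Irf3, and above 0 without mdx replicate 5 or control replicate 2 or 3 for Iigp1. With quantile normalization Ifit3 gave -0.036 and Irf3 -0.0144. Iigp1 gave 0.0380 with array weights and 0.242 as the mean of its probe sets, a setting in which Ifi204 gave 0.69 and Ly6e 0.52. With the hybridization controls Iigp1 gave 0.392, Ifngr1 0.081, Ifngr2 0.156 and Mx2 0.303. Signal over background limits the 11 genes at or below the noise level on all 10 arrays. At the robust noise level of 157 these were 4 genes.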

Other observations

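The interferon response genes did not share a highest mdx array. Mdx replicate 3 had the highest value of its group for Ifit2 (289), Ifit3 (359), Isg15 (409.7) and Mx1 (350.0). All values of Ifit2, Ifit3 and Mx1 were at or below the noise level. The other dim effectors were split. Oas1g (144), Eif2ak2 (84.9) and Adar (274) peaked on mdx replicate 3 too. Ifit1 (156) and Usp18 (213) peaked on mdx replicate 4 and Trim30a (228) on mdx replicate 2. Of the brighter effectors, Trim25 (812), Ifi35 (635) and Mx2 (615) were highest on mdx replicate 5. Mdx replicate 1 had the highest value for the GTPases Igtp (969), Irgm2 (2179.6) and Ifi47 (407). The other GTPases peaked elsewhere, Gbp2 (424) and Iigp1 (1147) on mdx replicate 3 and Gbp3 (645) and Irgm1 (608) on mdx replicate 5. No test was run on this ordering, which was chosen after its values were seen.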
